A study of Mus musculus with 2 samples.

Results

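Expression of integrins, cadherins, catenins and extracellular matrix genes was examined in primordial germ cells (PGCs), from which oocytes and sperm descend, of mouse embryos at day 9.5 (E9.5). Members were taken by gene symbol alone: integrin alpha and beta subunits, cadherins with a number in their name, catenins, laminin and collagen chains, fibronectin (Fn1) and the nidogens Nid1 and Nid2. Of 18877 genes in the expression table, 51 matched. They comprised 19 receptors (10 integrin subunits and 9 cadherins), 23 matrix genes (6 laminin chains, 14 collagen chains, Fn1, Nid1 and Nid2), 4 catenins, and 5 further genes that share the start of a name with these families. The GENCODE M21 annotation holds 122 genes whose symbols follow the same pattern, and the remaining 71, among them vitronectin (Vtn), were not analysed here.

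Both samples belonged to 1 group of untreated PGCs from C57BL6 embryos at E9.5, obtained with an antibody against the carbohydrate surface antigen SSEA1. The study's design text calls them biological repetitions, but the sources used here do not say which embryos or litters each came from, so the spread between them may be partly technical. According to the methods, cells came from female embryos and sorting used SSEA1 either alone on magnetic beads or together with integrin beta-3, the product of Itgb3. Itgb3 may therefore be a gene by which cells were chosen, and its level is given as a description. With 1 group and 2 replicates, no comparison between conditions could be made. Values are TPM, the abundance of a transcript per unit of its length relative to all transcripts of the library, so that levels of different genes can be set side by side.

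Cells hold on to each other and to their surroundings through distinct sets of proteins. Cadherins bind cadherins on neighbouring cells, and catenins link their inner ends to actin. Integrins are pairs of an alpha and a beta subunit that bind matrix proteins or receptors on other cells. Laminins, nidogens and type IV and XVIII collagens build basement membranes, whereas fibronectin and fibrillar collagens fill the space between cells. At this stage PGCs migrate from the hindgut towards the genital ridges, and cadherin and integrin contacts are known to matter for this migration.

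The number of reads behind each value was recovered from the table and came to 15912470 in replicate 1 and 5458687 in replicate 2. All 10 PGC markers examined had at least 1 TPM in both replicates, led by Dppa3 at 5044 ± 44.1 (SD, n = 2). Markers of other cells were also present. The 6 erythroid genes in the table summed to 3983 and 3765 TPM, led by the embryonic globin gene Hba-x, and Pf4, a platelet gene, had 84.9 and 83.0 TPM. By contrast, the mesenchyme markers, of which 3 of 6 listed were in the table, summed to 1.19 and 2.09 TPM. Among them Tcf21 was at 0 in replicate 2. The 5 genes of the gonadal epithelium summed to 3.91 and 3.99 TPM, with Nr5a1 at 0 in replicate 2. In bulk RNA, fewer cells of a type and less RNA per cell cannot be told apart.

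**Figure D1:**
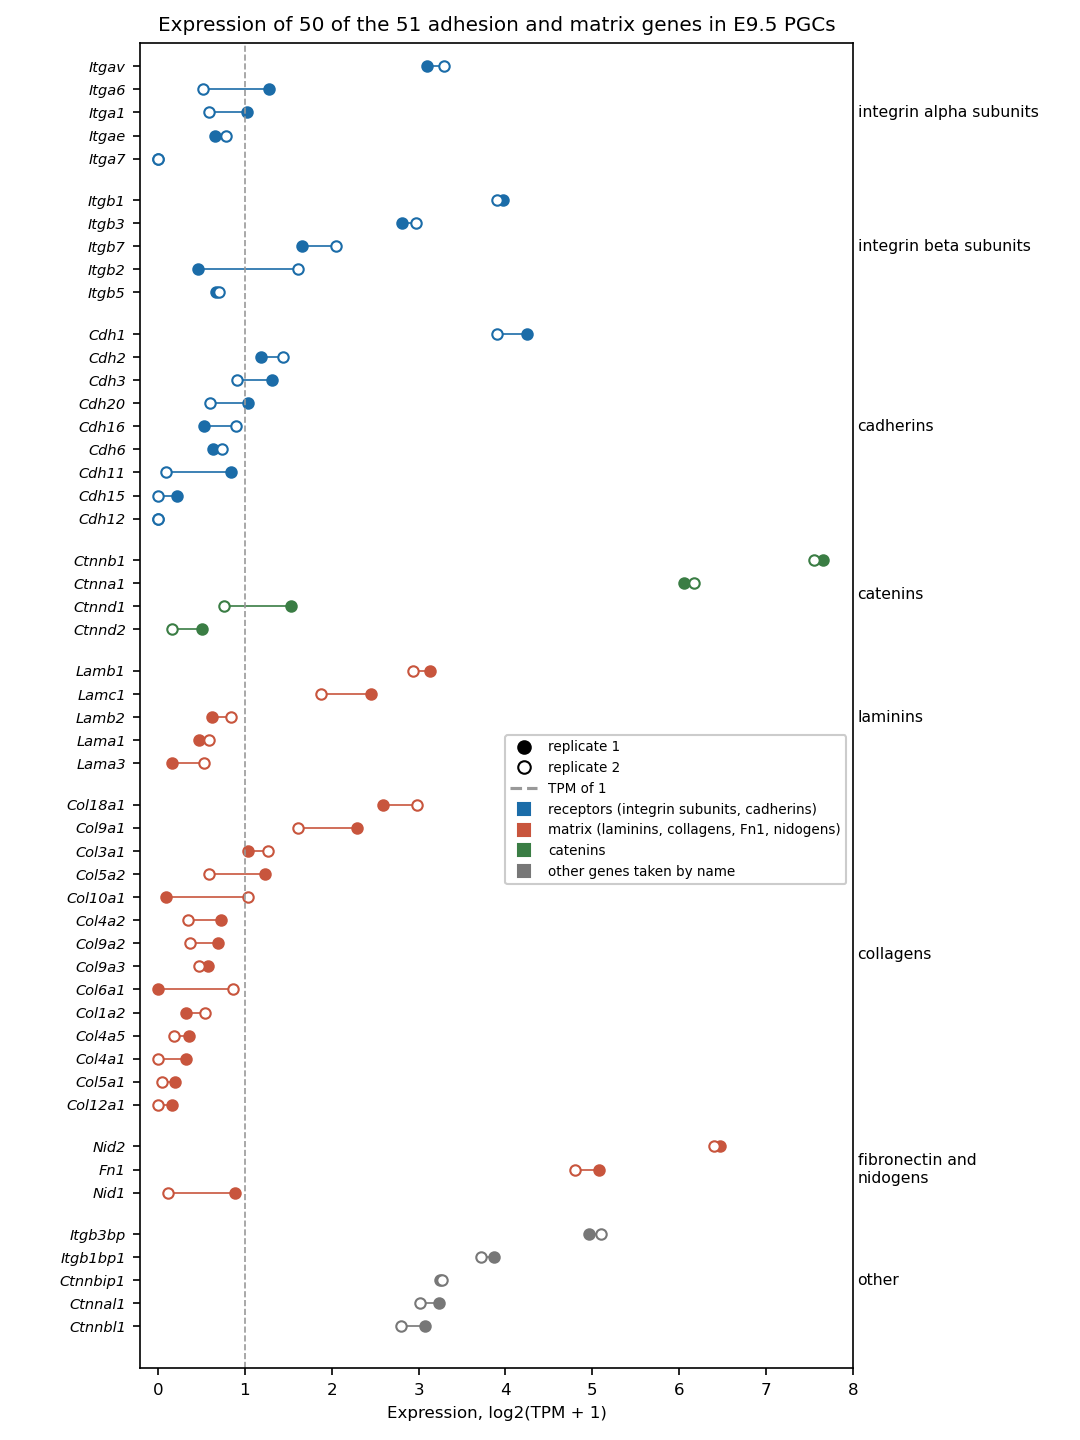
Expression of 50 of the 51 genes on the log2(TPM + 1) scale (x axis), by gene and family (y axis). Filled points are replicate 1, open points replicate 2, each line joins both, and the dashed line marks a TPM of 1. Ctnnb1, Nid2, Ctnna1, Fn1 and Itgb3bp had the highest means, and 20 genes lay at or right of the dashed line in both replicates.

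A few members carried most of the expression and many were near the limit of detection. At least 1 TPM in both replicates was reached by 20 of 51 members (39.2%), against 60.0% of all genes in the table. At least 10 TPM in both was reached by 8 members (15.7%), against 25.3% of all genes. These 8 were Ctnnb1, Nid2, Ctnna1, Itgb3bp, Fn1, Cdh1, Itgb1 and Itgb1bp1. The integrin gene Itga7 and the cadherin gene Cdh12 were listed at 0 in both replicates, as were 7.81% of all genes, against 3.92% of the members. For Itga7, 3 reads would correspond to 0.0390 TPM in replicate 1 and 0.111 in replicate 2, so lower expression could not be detected. Among the 47 members with recovered reads, fewer than 20 reads lay behind the value of 14 in replicate 1 and of 25 in replicate 2.

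The member with the highest level was a catenin, and the 4 catenins were expressed unequally. Ctnnb1 (beta-catenin, which binds the cadherin tail and also carries Wnt signals; chr9:120929216-120960507 on GRCm38, forward strand) had 200 and 186 TPM in replicates 1 and 2 (193 ± 9.85, n = 2), rank 781 of all genes in the table. Ctnna1 (alpha-catenin, which ties beta-catenin to actin) had 65.6 and 70.9 TPM (68.3 ± 3.79). The p120 catenin gene Ctnnd1, whose product holds cadherins at the cell surface, had only 1.90 and 0.695 TPM, from 132 and 17 reads. Its neuronal relative Ctnnd2 had 0.428 and 0.116 TPM. Ctnnb1 and Ctnna1 thus held 99.1% and 99.7% of the summed TPM of the 4 catenins, and 48.8% and 49.6% of that of all 51 members. The replicates did not change the order of these 4 genes.

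Overlapping genes bear on some of these values, since strand handling during counting is not stated. Of the exonic bases of Ctnnb1, 14.6% are shared with Ulk4 on the opposite strand, which itself had 100.2 and 94.5 TPM. Of those of Ctnnd1, 61.2% are shared with Gm28635 on the same strand (2.07 and 2.78 TPM). The value of Ctnnd1 is therefore uncertain, because reads in the shared exons could be given to either gene, to both or to none. No other catenin, receptor or matrix gene shared 10% or more of its exonic bases with another gene.

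Among cadherins, Cdh1 stood far above the rest. Cdh1 (E-cadherin; chr8:106603351-106670246, forward strand) had 18.0 and 14.0 TPM (16.0 ± 2.85, n = 2) from 784 and 214 reads. Cdh2 (N-cadherin, typical of mesenchymal and neural cells) had 1.28 and 1.71 TPM, and was the only other cadherin with at least 1 TPM in both. Cdh3 (P-cadherin) had 1.49 and 0.887 TPM. The level of Cdh1 was 14.1 times that of Cdh2 in replicate 1 (95% counting interval 11.4 to 17.6) and 8.20 times in replicate 2 (5.94 to 11.5). Relative to Cdh3 it was 12.1 (9.35 to 16.0) and 15.8 (9.03 to 30.1) times as high. The intervals of the ratio to Cdh2 overlapped between the replicates only at their edges, and Cdh1 was the higher gene in both.

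The remaining cadherins were low in both replicates. Cdh20 had 1.05 and 0.522 TPM, and Cdh16, a kidney cadherin, had 0.444 and 0.868. Cdh6 had 0.548 and 0.663 TPM. Cdh11, a cadherin of mesenchyme, had 0.792 TPM from 67 reads in replicate 1 and 0.0672 from 2 reads in replicate 2. Cdh15, the muscle cadherin, had 5 reads in replicate 1 and none in replicate 2. Over the 9 cadherins the median log2(TPM + 1) was 0.84 in replicate 1 and 0.73 in replicate 2, and Cdh1 alone held 75.8% and 74.8% of their summed TPM. Beta-catenin transcripts were in large excess over those of the leading cadherin, at 11.1 (10.3 to 11.9) and 13.3 (11.5 to 15.3) times the TPM of Cdh1.

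Integrin expression rested on Itgb1, Itgav and Itgb3. Itgb1 (beta-1, the partner of most alpha subunits; chr8:128685654-128733200, forward strand) had 14.7 and 13.9 TPM (14.3 ± 0.561, n = 2). Itgav (alpha-V, which forms receptors for fibronectin and vitronectin; chr2:83724397-83806916, forward strand) had 7.57 and 8.83 TPM (8.20 ± 0.889), and Itgb3, a partner of Itgav, had 6.01 and 6.84 (6.43 ± 0.591). None of these 3 genes had counting intervals that lay apart between the replicates. The ratio of Itgav to Itgb3 was 1.26 (1.11 to 1.44) in replicate 1 and 1.29 (1.05 to 1.59) in replicate 2, and that of Itgb1 to Itgav was 1.94 (1.74 to 2.17) and 1.58 (1.31 to 1.89). Itgb1 and Cdh1, the 2 leading receptors, were near each other: Cdh1 was 1.23 (1.10 to 1.37) times Itgb1 in replicate 1, and in replicate 2 the interval of that ratio, 0.823 to 1.23, spanned equal levels, so their order was resolved in replicate 1 alone. Platelets also carry the Itgb3 product, and beside its level stand the platelet markers, of which 3 of 7 listed were in the table, summing to 90.9 and 86.3 TPM, nearly all of it Pf4. Their part in the level of Itgb3 was not tested.

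Other alpha subunits were far lower than Itgav. Itga6 (a laminin-receptor subunit) had 1.43 TPM from 123 reads and 0.431 from 13. Itga1 (a collagen-receptor subunit) had 1.03 and 0.499 TPM. Of the exonic bases of Itga1, 3.68% are shared with Gm49395 on the same strand, a gene at 14.0 and 16.8 TPM. How much of the Itga1 value came from those bases was not tested. Itgae, whose product pairs with that of Itgb7 to bind E-cadherin, had 0.574 and 0.718 TPM. Itgav exceeded Itga6 by 5.28 (4.36 to 6.44) times in replicate 1 and 20.5 (11.8 to 38.9) times in replicate 2, and these intervals did not overlap, so that the preponderance of Itgav held in both libraries while its size did not. The 5 alpha subunits summed to 10.6 and 10.5 TPM and the 5 beta subunits to 23.9 and 26.6 TPM, a ratio of 2.25 and 2.54. Itgav made up 71.4% and 84.3% of the alpha sum. Of the annotated subunits, 13 of 18 alpha and 4 of 9 beta were not analysed here. The ratio therefore covers measured subunits only and does not show an excess of beta over alpha.

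The lesser beta subunits differed in how far the replicates matched. Itgb7, a leukocyte subunit, had 2.16 and 3.13 TPM from 57 and 29 reads, 3.77 (2.32 to 6.30) and 4.36 (2.11 to 9.67) times its partner Itgae. Itgb5, another partner of Itgav, had 0.595 and 0.623 TPM. Itgb2, the leukocyte integrin beta subunit, had 0.379 TPM from 11 reads in replicate 1 and 2.06 from 21 reads in replicate 2, and their counting intervals lay apart. The macrophage markers, of which 4 of 6 listed were in the table, were all lower in replicate 2. Of all 18877 genes, 9688 (51.3%) were lower there and 7715 higher, the rest being at 0 in both. The macrophage markers summed to 19.4 TPM in replicate 1 and 9.53 in replicate 2, with C1qb at 0 in replicate 2. Their part in the level of Itgb2 was not tested.

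Matrix expression was led by Nid2 and Fn1. Nid2 (nidogen-2, a linker of laminin and type IV collagen; chr14:19751265-19811787, forward strand) had 87.5 and 83.1 TPM (85.3 ± 3.14, n = 2) from 4304 and 1437 reads, rank 1359 of all genes. Fn1 (fibronectin, a ligand of Itgav integrins; chr1:71585520-71653200, reverse strand) had 32.7 and 26.9 TPM (29.8 ± 4.17) from 3637 and 1049 reads. Nid2 was 2.67 (2.56 to 2.79) and 3.09 (2.86 to 3.35) times Fn1. In contrast, Nid1, which encodes the other nidogen, had 0.848 TPM from 56 reads and 0.0862 from 2 reads. The ratio of Nid2 to Nid1 was 103 (79.3 to 137) in replicate 1 and 964 (266 to 7969) in replicate 2, where only 2 reads stood below the line. In its last exon, Nid2 shares 437 bases (8.45% of its exonic bases) with Rtraf on the opposite strand, a gene at 443 and 463 TPM, and how much of the Nid2 value came from those bases was not tested.

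Laminin genes were expressed for some chains of the trimer more than for others. A laminin is assembled from an alpha, a beta and a gamma chain. Lamb1 (beta) had 7.78 and 6.64 TPM and Lamc1 (gamma) had 4.46 and 2.68, a ratio of 1.74 (1.53 to 1.98) and 2.48 (1.90 to 3.27). Both alpha chains in the table were low: Lama1 had 0.387 and 0.503 TPM, and Lama3 had 0.117 and 0.445. Summed by chain, beta reached 8.31 and 7.42 TPM and alpha 0.504 and 0.948. Lamb1 was 20.1 and 13.2 times Lama1. The minor beta chain Lamb2 had 0.536 and 0.787 TPM, and 5 annotated laminin chains were not analysed here, so the alpha sum is a sum over measured chains only.

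Collagen genes were the lowest matrix family, with a median log2(TPM + 1) of 0.47 in replicate 1 and 0.51 in replicate 2. At least 1 TPM in both was reached by 3 of 14 (21.4%), against 60.0% of all genes. Col18a1, the type XVIII collagen of basement membranes and the source of endostatin, had 5.02 and 6.90 TPM (5.96 ± 1.33, n = 2). Col9a1 had 3.88 and 2.07 TPM from 187 and 35 reads. Type IX collagen, best known from cartilage and the eye, is a trimer of the products of Col9a1, Col9a2 and Col9a3, but Col9a1 was 6.34 (3.91 to 10.9) and 7.12 (2.25 to 36.2) times Col9a2, and 7.90 (4.86 to 13.6) and 5.32 (2.08 to 17.4) times Col9a3. Col9a2 and Col9a3 themselves did not differ beyond counting error in either replicate. Col3a1, a fibrillar collagen of connective tissue, had 1.06 and 1.40 TPM.

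The collagens below a TPM of 1 in at least 1 replicate included chains of the basement membrane and of fibrils. Col5a2 had 1.35 and 0.499 TPM, and its fibrillar partner Col5a1 had 0.149 and 0.0352. The basement membrane chains Col4a2 and Col4a1, whose genes start head to head on chromosome 8, had 0.652 and 0.271 TPM, and 0.254 and 0 TPM. Col4a2 was 2.57 (1.44 to 4.75) times Col4a1 in replicate 1. The fibrillar chain Col1a2 had 0.254 and 0.457 TPM, Col4a5 had 0.282 and 0.134, and Col12a1 had 0.124 and 0. Col10a1, a collagen of growth cartilage, had 2 reads in replicate 1 and 11 in replicate 2, and Col6a1 had 0 and 12 reads. At these depths a chain at 0 in replicate 2 was not shown to be absent: for Col4a1, 3 reads there would correspond to 0.120 TPM.

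**Figure D2:**
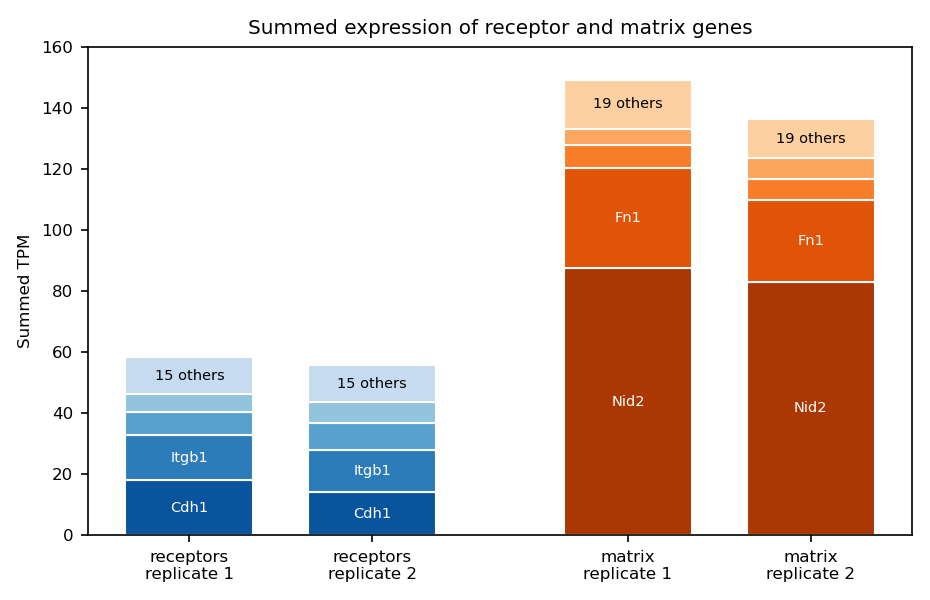
Summed TPM (y axis) of the 19 receptors and the 23 matrix genes in each replicate. Segments from the bottom are Cdh1, Itgb1, Itgav, Itgb3 and 15 others for receptors, and Nid2, Fn1, Lamb1, Col18a1 and 19 others for matrix. Matrix sums of 149 and 137 stood above receptor sums of 58.3 and 55.8, and the excess lay in Nid2 and Fn1.

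Receptors and matrix genes were then compared as classes. Their shares of expressed genes were close, with 6 of 19 receptors (31.6%) and 7 of 23 matrix genes (30.4%) having at least 1 TPM in both replicates. Over all genes the share was 60.0%. Receptors had a median log2(TPM + 1) of 1.02 and 0.78 (0.90 ± 0.170, n = 2) and matrix genes of 0.69 and 0.59 (0.64 ± 0.0714), where the median over all genes was 1.89 and 1.85. The receptor median was higher by 0.33 in replicate 1 and 0.19 in replicate 2 (0.26 ± 0.0984). This order depended on which genes were counted. Over members with a mean TPM of at least 0.5 the difference was -1.10 and -0.70 (-0.90 ± 0.282), with matrix genes higher in both replicates. Without collagens it was 0.13 and -0.33 (-0.10 ± 0.326), so the replicates differed in sign. The integrin subunits alone exceeded the matrix genes by 0.46 and 0.61 and the cadherins alone by 0.15 and 0.15. No p was computed, since genes are not replicates and the groups are not a random draw.

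Summed expression gave the opposite order. The matrix genes summed to 149 and 137 TPM and the receptors to 58.3 and 55.8, a ratio of 2.56 and 2.45 (2.51 ± 0.0811, n = 2). Nid2 and Fn1 held 80.5% of the matrix sum in each replicate. Without them the matrix genes summed to 29.1 and 26.6 TPM and the ratio was 0.488, and without Nid2 alone it was 1.06 and 0.959, on either side of equal sums. The receptor sum was spread more widely, with 56.2% and 50.1% in Cdh1 and Itgb1. The ligand Fn1 was above every integrin subunit in the table in both replicates, whereas both laminin alpha chains were below 1 TPM in both.

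**Figure D3:**
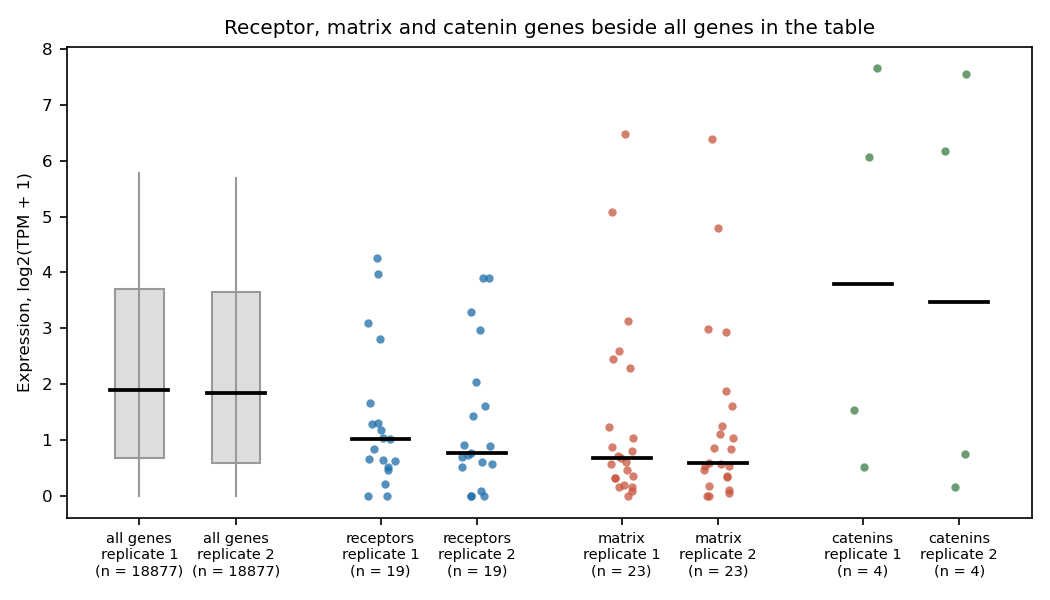
Expression on the log2(TPM + 1) scale (y axis) of receptors, matrix genes and catenins, 1 point per gene, beside all 18877 genes, by replicate (x axis). Black bars are medians; for all genes the box spans the 25th to 75th and the line the 10th to 90th percentile. The receptor medians of 1.02 and 0.78 and the matrix medians of 0.69 and 0.59 lay below the medians of all genes, 1.89 and 1.85, with a few genes of each class far above.

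The 5 further genes taken by name encode proteins that are neither receptors nor matrix. All 5 had at least 1 TPM in both replicates, as did 60.0% of all genes. Itgb3bp, a kinetochore protein gene also named for binding integrin beta-3, had 30.1 and 33.3 TPM. Itgb1bp1, an inhibitor of beta-1 integrin activation, had 13.6 and 12.2 TPM. Ctnnbip1, whose product keeps beta-catenin from TCF factors, had 8.48 and 8.68 TPM, Ctnnal1 had 8.43 and 7.11, and Ctnnbl1, which encodes a splicing-associated protein, had 7.43 and 5.97. They were kept out of the classes above. Part of the exonic bases of Ctnnbip1 (25.8%) and Itgb1bp1 (11.4%) is shared with a gene on the opposite strand.

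Windows of 250 bases before the RefSeq start on GRCm38.p6 were available for 31 of the 51 members, 36 windows in all. To show the range, the windows of the leading catenin, the 2 leading integrin genes with an entry, and the 2 collagen genes of at least 1 TPM without any CG are printed here, each 5′ to 3′ on the forward strand in lower case with every CG dinucleotide in capitals. They lie at chr9:120933150-120933399 (the upstream start of Ctnnb1, inside the span that GENCODE gives the gene but outside its exons), chr8:128685404-128685653 (Itgb1), chr2:83724147-83724396 (Itgav), chr1:24177360-24177609 (the upstream start of Col9a1) and chr1:45311288-45311537 (Col3a1).
Ctnnb1: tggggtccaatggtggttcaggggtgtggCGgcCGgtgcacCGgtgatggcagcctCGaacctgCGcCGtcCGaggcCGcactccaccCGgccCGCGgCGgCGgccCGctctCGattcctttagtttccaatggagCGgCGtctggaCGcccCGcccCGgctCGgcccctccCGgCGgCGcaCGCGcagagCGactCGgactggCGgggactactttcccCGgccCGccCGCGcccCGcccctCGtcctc
Itgb1: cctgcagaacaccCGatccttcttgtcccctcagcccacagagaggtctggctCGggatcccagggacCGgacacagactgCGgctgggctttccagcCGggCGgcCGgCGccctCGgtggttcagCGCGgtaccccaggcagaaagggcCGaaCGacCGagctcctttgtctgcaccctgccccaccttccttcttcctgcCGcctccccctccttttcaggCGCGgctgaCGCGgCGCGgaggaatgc
Itgav: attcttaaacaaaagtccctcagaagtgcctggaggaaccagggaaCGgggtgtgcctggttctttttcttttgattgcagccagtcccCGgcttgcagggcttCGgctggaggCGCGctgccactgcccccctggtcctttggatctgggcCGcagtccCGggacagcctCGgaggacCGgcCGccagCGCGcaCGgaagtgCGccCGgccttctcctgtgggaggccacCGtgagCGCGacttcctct
Col9a1: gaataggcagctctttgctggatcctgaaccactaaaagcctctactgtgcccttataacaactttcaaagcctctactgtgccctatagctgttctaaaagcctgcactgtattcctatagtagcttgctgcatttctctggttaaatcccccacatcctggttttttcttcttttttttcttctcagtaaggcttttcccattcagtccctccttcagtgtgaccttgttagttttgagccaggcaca
Col3a1: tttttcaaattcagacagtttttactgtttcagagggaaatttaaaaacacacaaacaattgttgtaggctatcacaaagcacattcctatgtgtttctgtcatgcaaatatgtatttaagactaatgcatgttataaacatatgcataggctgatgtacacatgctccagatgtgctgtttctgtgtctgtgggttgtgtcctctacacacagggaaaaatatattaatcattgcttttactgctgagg

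The windows differed widely in base composition. The Ctnnb1 window held 35 CG dinucleotides at 74.8% G or C, the Itgb1 window 21 at 68% and the Itgav window 18 at 64.4%, whereas Col9a1 (43.6%) and Col3a1 (35.2%) held none. The median over the 36 windows was 11.5 CG, against 6 over all 32851 RefSeq windows of the same length. The 17 windows of members with at least 1 TPM in both replicates had a median of 15, and those of the other members 10. The 17 include the 5 further genes kept out of the classes, at 8 to 24 CG, and both starts of Ctnnb1, at 35 and 43. Nid2, Ctnna1, Fn1, Cdh1, Itgb3, Lamc1 and Cdh2 also reached 1 TPM in both but had no window. A link between CG and expression was therefore not tested. No CG was found in 3 of 36 windows (8.33%), both starts of Col9a1 and that of Col3a1, against 7.87% of all windows. On either strand, GGGCGG, which itself contains a CG, was found in 47.2% of the members' windows and 32.7% of all, CCAAT in 36.1% and 33.8%, and TATAAA in 11.1% and 12.4%. Such matches describe letters in these windows and not sites in use.

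**Figure D4:**
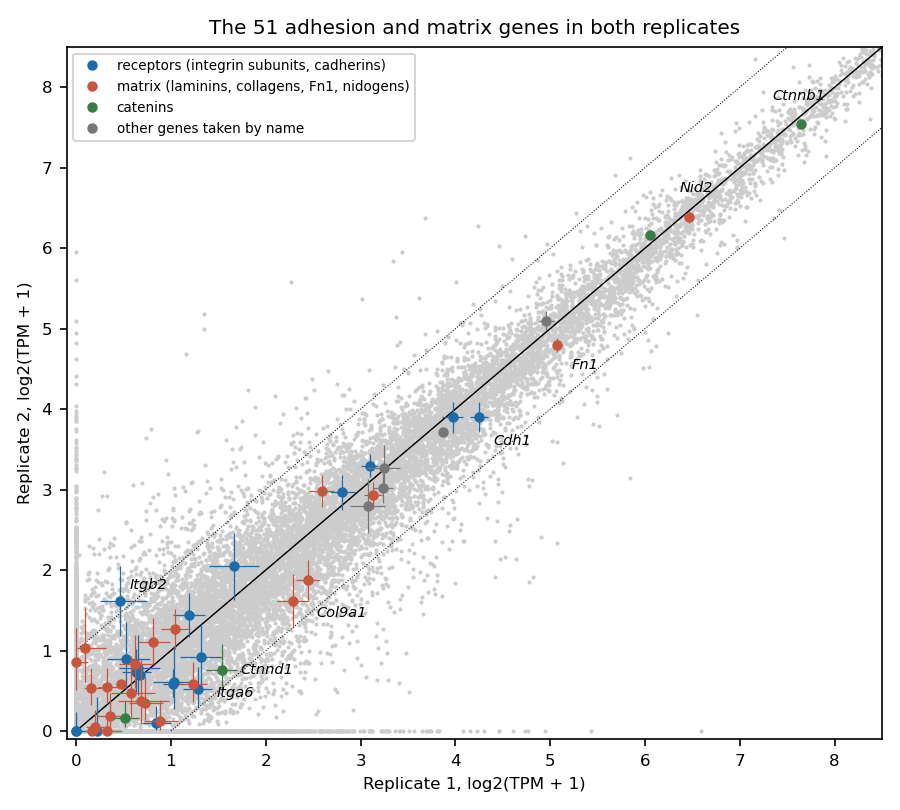
Replicate 1 (x axis) against replicate 2 (y axis) on the log2(TPM + 1) scale, with the 51 members coloured by class and all other genes in grey. Error bars are exact 95% Poisson intervals of the recovered reads for the 47 members that have them, dotted lines mark a 2-fold difference, and genes above 8.5 are not shown. Itgb2 was the only member beyond the dotted lines.

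The replicates ranked the members alike at high levels and less so at low ones. Across the 51 members, which share 2 libraries of unequal depth, the correlation of log2(TPM + 1) was 0.974 by Pearson's r and 0.83 by Spearman's rho. Over all genes it was 0.960 and 0.90. These are given as descriptions since genes are not independent replicates. On this scale 1 of 51 members (1.96%) differed more than 2-fold, against 10.2% of all genes. It was Itgb2, higher in replicate 2 by 1.15 on the log2(TPM + 1) scale. This scale understates differences of low genes. With a pseudocount of 0.1 the count was 14 of 51 members, against 4468 of 18877 genes (23.7%). The lower share of the members was thus seen only with a pseudocount of 1.

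Counting intervals were compared for the 44 members with at least 10 reads over both libraries. They lay apart with replicate 1 higher for 14 members (31.8%), against 18.3% of all genes so examined, and with replicate 2 higher for 5 (11.4%), against 11.1%. The 14 were Itga6, Itga1, Cdh1, Cdh11, Ctnnb1, Ctnnd1, Ctnnd2, Lamc1, Col9a1, Col5a2, Col4a1, Col12a1, Fn1 and Nid1. The 5 were Itgb2, Lama3, Col18a1, Col10a1 and Col6a1. Matrix genes and receptors occurred on both sides. These intervals cover counting error only, so they describe the libraries and not a condition. The endothelial markers, of which 6 of 7 listed were in the table, summed to 14.8 TPM in replicate 1 and 13.2 in replicate 2. Of these 6, 4 were lower in replicate 2 and 2 higher, against 9688 lower (51.3%) and 7715 higher of all 18877 genes. Among the endothelial markers, Emcn had 2.12 and 0 TPM and Kdr 0.850 and 0.166. Pecam1, which held most of the sum, was higher in replicate 2 at 8.23 and 9.99, as was Egfl7 at 1.82 and 2.17. Of the mesenchyme markers in the table, 1 of 3 was lower in replicate 2. The visceral and gut endoderm markers, of which 5 of 8 listed were in the table, summed to 2.57 and 7.96 TPM, mostly Rbp4 at 1.30 and 5.77, with Foxa1 at 0 in both, Foxa2 at 0 in replicate 1 and Afp at 0 in replicate 2. The 3 neural markers in the table, of 4 listed, summed to 6.41 and 7.05 TPM. The part of these cell types in the members that differed was not tested.

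**Figure D5:**
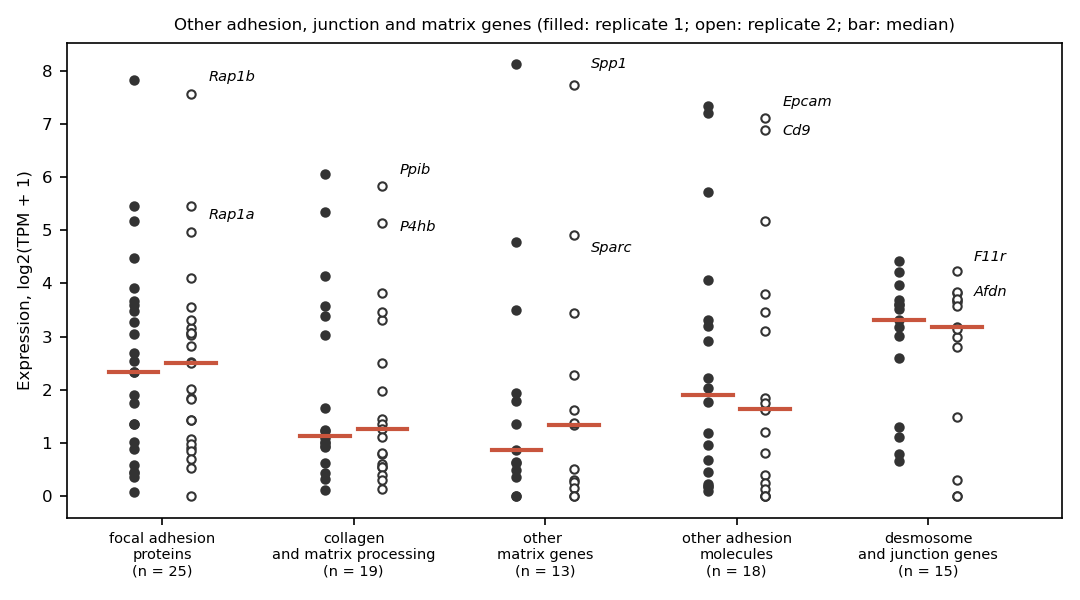
Expression on the log2(TPM + 1) scale (y axis) of 5 lists of related genes (x axis), 1 point per gene, filled for replicate 1 and open for replicate 2, with red bars at the medians and the 2 highest genes named. Junction genes had the highest medians and the other matrix genes and the collagen and matrix processing genes the lowest.

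Genes that work with the members were taken from 5 lists, each described by its own counts. Of all genes in the table, 60.0% had at least 1 TPM in both replicates. Of the focal adhesion proteins, which couple integrins to actin, 18 of 25 (72%) reached that level. Their median log2(TPM + 1) was 2.34 and 2.50. The small GTPase genes Rap1b (226 and 187 TPM) and Rap1a (42.8 and 43.0 TPM), which promote integrin activation, led with Lims1 at 32.8 ± 3.51 and the adaptor gene Crk at 18.6 ± 3.57 TPM. The lowest were Parva, Fermt1, Zyx and Parvb, at means of 0.537, 0.490, 0.476 and 0.0238 TPM. Of desmosome and junction genes, 12 of 15 (80%) passed the same threshold, with medians of 3.31 and 3.18. F11r, Afdn and Tjp1 led at means of 19.0, 15.2 and 13.3 TPM, and Cldn6, Ocln, Dsc2 and Cldn3 were lowest. Ocln, the occludin gene, had 1.17 TPM from 47 reads in replicate 1 and 0 in replicate 2.

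Of the other adhesion molecules, 10 of 18 (55.6%) had at least 1 TPM in both replicates, against 60.0% of all genes. Their medians were 1.90 and 1.63. Epcam, an epithelial adhesion molecule also found on germ cells, had 160 and 138 TPM, and the tetraspanin gene Cd9, whose product associates with integrins, had 146 and 117. Bsg had 51.3 and 35.0 TPM and the dystroglycan gene Dag1, a laminin receptor, had 15.6 and 12.9. Each of Epcam, Cd9 and Bsg thus stood above every integrin subunit and cadherin in the table. Alcam, Sdc3, Cd44 and Icam1 were lowest, at means from 0.0362 to 0.185 TPM, with Cd44, the hyaluronan receptor, at 0.124 and 0 TPM. In this list 15 of 18 genes were lower in replicate 2 and 3 higher. Of all 18877 genes, 9688 (51.3%) were lower there and 7715 higher, the rest being at 0 in both.

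Matrix genes outside the families above were led by Spp1. Of these, 6 of 13 (46.2%) had at least 1 TPM in both replicates, against 60.0% of all genes. Their medians were 0.86 and 1.33. Spp1 (osteopontin, a ligand of Itgav integrins) had 278 and 212 TPM (245 ± 46.7, n = 2), above every collagen, laminin and nidogen in the table and above Fn1. Sparc had 26.5 and 29.1 TPM, Npnt (nephronectin) 10.3 and 9.94, and the agrin gene Agrn 2.82 and 3.83. Fbln2 and Ltbp1 were low, and Dcn and Lum, which encode proteoglycans of connective tissue, were listed at 0 in both replicates. Collagen and matrix processing genes passed in 10 of 19 (52.6%), with medians of 1.13 and 1.26. The highest, Ppib (60.8 ± 6.73 TPM) and P4hb (36.9 ± 4.11 TPM), act in the endoplasmic reticulum on many proteins besides collagen, and Timp1 and Crtap followed at 14.9 and 9.19 TPM. The collagen chaperone Serpinh1, named after its values were seen, had 2.15 and 2.94 TPM. The lowest were Mmp2 (0.497 TPM), Mmp14 (0.349), Plod1 (0.326) and Pcolce (0.159).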

How the data were processed

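Total RNA of 2 samples of E9.5 PGCs was profiled by RNA-seq. Per the methods, cDNA was made by Smart-seq2, whereas the labels name another library kit, so the chemistry is uncertain. The authors aligned reads to mm10 with Hisat2, counted them per gene with featureCounts and deposited TPM for 18877 gene symbols. The submitters' processing notes also name Bowtie2, RSEM, DESeq2 and R 3.4.2. Versions of the aligner and counter, the annotation and strand handling are not given in the sources used here.

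Symbols were matched to GENCODE M21 (18748 to a single gene; 129 were not, 17 of them turned into dates). TPM multiplied by summed exon length gave whole multiples of 1 amount in each library, taken as 1 read. Of values under 50 reads, 96.7% and 95.8% lay within 0.02 of a whole number. Tested on simulated data for 18748 genes, the recovery returned 100% of counts in each library. The simulation used the same exon lengths as the recovery, so it cannot show whether the authors' annotation or counting differed. Exact 95% Poisson intervals and a limit of 3 reads for a zero were computed from these reads. Without molecular identifiers, reads of the same molecule cannot be told from reads of others, so both cover counting error alone. Intervals of ratios are exact and conditional on the summed reads. Itgb5, Ctnna1, Lama1 and Itgb1bp1 did not give whole reads and have no interval.

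Levels were compared as log2(TPM + 1) without a filter, as means ± SD of both replicates. No test was run, since there was 1 group. Members and companion lists were chosen with earlier results of these data known. Named by rule were all integrin subunits, catenins, laminins, Fn1 and nidogens, the cadherins and collagens with at least 1 TPM in both replicates with the 5 highest of each, members of at least 50 reads that differed more than 2-fold, and the 4 highest and 4 lowest of each companion list. For 2 genes that this rule takes in, no value of their own is given. The other cadherins and collagens, the 5 further genes and Serpinh1 were named after their values were seen. Alternatives were another pseudocount, filters, thresholds, scaling, class definitions and leaving out each replicate. Python 3.11.15, numpy 2.4.6, pandas 2.3.3, scipy 1.17.1 and matplotlib 3.10.9 were used. Promoter windows were taken from RefSeq on GRCm38.p6.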

Additional observations from a re-analysis of the deposited data

How the results depend on the processing

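No paired analysis was possible because all samples belonged to 1 group. Of 44 alternatives, 21 left the value within the spread between replicates or within 1.5 times the count, 20 moved it and 3 reversed it. For the medians, their difference and the summed ratio, leaving out 1 of 2 replicates always stays within that spread. Those alternatives are among the 21 and give no evidence of stability. The receptor minus matrix difference in median log2 expression, 0.26, became -0.90 over members with a mean TPM of at least 0.5 (15 receptors against 11 matrix genes) and -0.10 without collagens (0.13 in replicate 1 and -0.33 in replicate 2, so only replicate 2 reversed), and the ratio of summed matrix to receptor TPM, 2.51, became 0.488 without Nid2 and Fn1 and 1.01 without Nid2 (1.06 and 0.959), the latter choices added after seeing the data. Elsewhere the difference was 0.55 with a pseudocount of 0.1, 0.024 as a mean over members, 0.54 for integrin subunits alone and 0.16 for basement membrane genes alone. The receptor median of 0.90 was -0.057 with that pseudocount, 1.33 as a mean and 1.17 for integrin subunits alone. The matrix median of 0.64 was -0.61 with that pseudocount, 1.31 as a mean, 1.95 with the filter on mean TPM, 0.74 for basement membrane genes, 0.996 without collagens and 0.72 after rescaling, which shifted the median of all genes by 0.16. With 0.5 TPM as the threshold 11 receptors were counted in place of 6, and with 5 TPM there were 4 matrix genes in place of 7. A minimum of 10 recovered reads, added after seeing the data, counted 13 receptors and 12 matrix genes. The count of members beyond 2-fold, 1, was 14 with a pseudocount of 0.1, and could not be computed without a replicate.

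Leaving out each replicate gave receptor medians of 0.78 to 1.02, matrix medians of 0.59 to 0.69, differences of 0.19 to 0.33, 7 to 10 receptors, 8 to 9 matrix genes and ratios of 2.45 to 2.56. The count of 10 receptors is that of replicate 1 alone. The causes of these shifts were not tested. Recovered depth limited the low members most, since 25 of the 47 with recovered reads had fewer than 20 in replicate 2.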
